A study of Mus musculus with 6 samples.

Results

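Mouse corneas taken 15 days after an alkali burn were compared with corneas taken 5 days after the same injury, gene by gene, by RNA sequencing. All loci of the deposited gene table that carry a gene symbol entered the comparison, 23889 of 28539 loci, and 4 of the 6 samples of the study belong to it. The animals were female C57BL/6J mice of 6 to 8 weeks. Each group held 2 samples of whole cornea: untreated corneas (day 0), corneas at day 5 after the burn, and corneas at day 15, which the labels call a regression stage. The labels leave unsaid whether 1 animal or several gave the 2 samples of a group, and no genetic change or drug is named for any group. RNA was extracted by a sequencing company, converted to cDNA from poly(A) tails and sequenced on the Illumina platform. The comparison follows the injured tissue between the 2 times, and the untreated level is given beside it for orientation.

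Expression is given in FPKM, a read count per length of transcript and per size of library, for which the authors' table holds 1 pooled value per group. No spread between samples can therefore be shown, no test was possible, and no p-value is given. The range in brackets after a value is the authors' interval for that group. For loci with 5 FPKM or more it extended, at the median, 52.4% of the FPKM to either side at day 5 and 51.8% at day 15, so that small differences cannot be resolved. The number of reads behind each value is unknown.

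An alkali burn destroys the clear epithelium of the cornea and damages the stroma beneath it. Neutrophils arrive first, drawn by CXC chemokines that bind the receptor Cxcr2, and macrophages take over later. Blood vessels grow in from the rim of the eye, and where the epithelial stem cells at that rim are lost, conjunctival epithelium with its mucus-secreting goblet cells can spread over the cornea.

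A locus was called apart on 3 conditions: the higher of its 2 values reached 1 FPKM, (FPKM + 1) differed between day 15 and day 5 by a log2 ratio of 1 or more in size, and the 2 intervals did not overlap. The log2 ratio is on this pseudocount scale throughout and understates the difference of low genes, while a fold is the plain ratio of FPKM. At day 15, of 12981 named loci that reached 1 FPKM at either time, 53 (0.408%) stood higher and apart, 55 (0.424%) lower and apart, 108 (0.832%) in all. Counting the sign alone, 40.3% of all named loci had a higher value at day 15 and 37.5% a lower one, and among the 12981 loci these shares were 51.1% and 48.9%. The counts of every gene list below are to be read beside these shares. The great majority, 95.7%, differed by less than 1 log2 unit, and the median log2 ratio was 0 over all named loci. A further 238 loci were higher and 208 lower by at least 1 log2 unit but had overlapping intervals. The plot of day 15 against day 5 shows the loci apart as 2 thin flanks of a narrow diagonal band. In whole tissue, fewer cells of a type and less RNA per cell cannot be told apart, and this holds for every difference below.

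**Figure D1:**
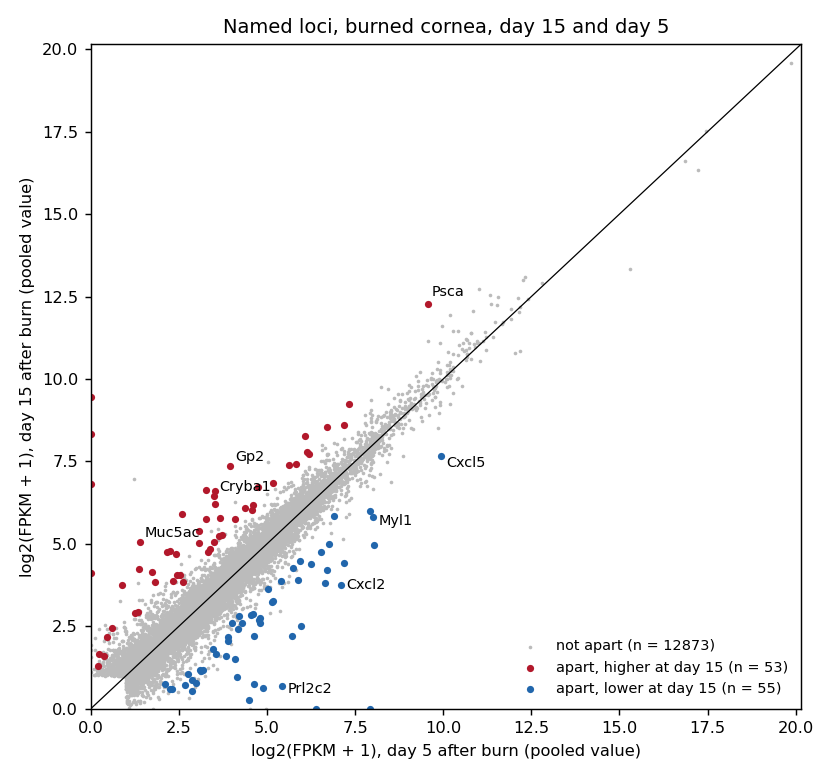
Each point is 1 named locus, with log2(FPKM + 1) at day 5 on the horizontal axis and at day 15 on the vertical axis, and the line marks equal values. The 53 loci higher and apart at day 15 (red) and the 55 lower and apart (blue) flank 12873 loci that were not apart (grey), and the named examples include Psca, Gp2 and Muc5ac above the line and Cxcl5, Cxcl2 and Prl2c2 below it.

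The promoters of 3 genes of the CXC chemokine cluster on chromosome 5, all lower and apart at day 15, are shown because they share a run of bases just before their start sites. The sequences are the 120 bases that end at the base before the annotated start (RefSeq, GRCm38.p6), read 5′ to 3′ in the direction of the gene. The capitals mark GGGAATTTCCC, the longest run found in all 3, which holds a binding sequence of the transcription factor NF-kB, a factor that responds to interleukin 1 and to bacterial products.
Cxcl1 (chr5:90891125-90891244, plus strand): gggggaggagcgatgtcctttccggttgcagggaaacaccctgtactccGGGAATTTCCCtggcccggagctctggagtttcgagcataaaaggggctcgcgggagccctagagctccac
Cxcl2 (chr5:90903779-90903898, plus strand): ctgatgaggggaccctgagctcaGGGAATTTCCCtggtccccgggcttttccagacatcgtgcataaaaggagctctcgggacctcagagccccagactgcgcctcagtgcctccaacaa
Cxcl3 (chr5:90785981-90786100, plus strand): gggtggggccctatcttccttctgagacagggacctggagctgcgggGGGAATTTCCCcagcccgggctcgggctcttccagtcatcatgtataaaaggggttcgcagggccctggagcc
The match begins 71 bases before the start of Cxcl1, 97 before that of Cxcl2 and 73 before that of Cxcl3. Searched on both strands of windows of 300 bases (250 before and 50 after the start), it occurs in 14 of 32851 RefSeq mouse promoters, or 0.0426%. Promoters could be matched by symbol for 39 of the genes lower and apart and 31 of those higher and apart, and the 3 chemokine genes were the only matches in these 2 sets. The run was defined from their own promoters, so these matches were fixed in advance and do not compare the sets. The shorter GGAATTTCC, which lies within the longer run and is the part of it shared with Acod1, occurs in 104 promoters (0.317%), among them 4 of the 39 lower genes and 1 of the 31 higher genes. Those 4 were likewise fixed in advance, because the shorter run was taken from their promoters. The added lower gene is Acod1, listed in the files under its older symbol Irg1, whose match is on the opposite strand and begins 85 bases before the start.
Acod1 (chr14:103046892-103047011, plus strand): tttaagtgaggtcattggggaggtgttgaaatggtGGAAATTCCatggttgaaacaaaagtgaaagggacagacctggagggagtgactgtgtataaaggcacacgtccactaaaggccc
A match describes the letters in the window and is not evidence of binding.

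Chemokines that attract neutrophils stood far lower at day 15 than at day 5. Of 22 measured CXC chemokines and receptors, 15 reached an FPKM of 1, 5 were lower and apart, 0 were higher and apart, and 16 had a lower value, with a median log2 ratio of -0.27. The summed FPKM of the list was 2560 at day 5, 831 at day 15 and 71.9 in untreated corneas. Cxcl5, an epithelial chemokine, reached 971 (499 to 1443) at day 5 and 203 (113 to 294) at day 15, and 19.3 at day 0, a log2 ratio of -2.25. Cxcl1, a ligand of Cxcr2, had 144 (65.9 to 223) at day 5 and 20.5 (5.12 to 35.9) at day 15, with 9.83 at day 0. Its neighbour Cxcl2 had 135 (61.3 to 209) at day 5 and 12.3 (3.38 to 21.3) at day 15, with 1.53 at day 0, the largest difference of the cluster at a log2 ratio of -3.35. Cxcl3, the closest relative of Cxcl2, had 99.7 (47.1 to 152) and 12.97 (2.24 to 23.7) and was listed at 0 at day 0. In all 4 genes the day 15 value stood between those of day 0 and day 5. Cxcl14, a chemokine of epithelia outside this cluster, had 26.6 (11.3 to 41.8) and 5.40 (1.58 to 9.22), with 4.29 at day 0.

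The cluster did not differ as one. In mm10 coordinates it runs from Cxcl5 (chr5:90759298-90761625) through Ppbp, Pf4, Cxcl3, Cxcl1 and Cxcl2 (chr5:90899014-90905938) to the growth factor genes Epgn and Ereg. Ppbp, a platelet chemokine precursor between Cxcl5 and Cxcl3, had 923 (521 to 1325) at day 5 and 363 (193 to 533) at day 15, and its intervals overlapped narrowly. Pf4, platelet factor 4, had 137 (62.3 to 211) and 107 (47.8 to 167), a log2 ratio of -0.34. Epgn, epigen, a ligand of the EGF receptor, was lower and apart, with 24.03 (9.20 to 38.9) and 3.64 (0.200 to 7.08), and unlike the chemokines it was also high in untreated cornea, at 35.4. Ereg, epiregulin, next to it and a ligand of the same receptor, had 34.0 (18.2 to 49.8) and 38.0 (21.04 to 54.9). Cxcr2 itself had 9.54 (4.19 to 14.9) at day 5 and 2.99 (1.21 to 4.77) at day 15, just short of being apart. The locus of Cxcl2 is 3.35 times as long as the annotated gene, so that its value may include reads from beyond it.

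CC chemokines, which attract monocytes and lymphocytes, had no member apart. Of 29 measured, 20 reached an FPKM of 1, 17 had a lower value and 11 a higher one, and the median log2 ratio was -0.02. Ccl2, the main attractant of monocytes, had 41.9 (14.4 to 69.4) at day 5 and 12.0 (1.15 to 22.8) at day 15. Ccl4 had 47.6 (21.1 to 74.2) and 13.2 (3.67 to 22.8), with overlapping intervals as well. Ccl8, another monocyte attractant, had 16.6 (5.21 to 28.1) and 27.7 (13.2 to 42.3), and Cx3cr1, the fractalkine receptor of resident macrophages, 2.67 (0.675 to 4.66) and 7.46 (3.21 to 11.7). Values of this family thus lay on both sides, none of them apart.

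Cytokines of the interleukin 1 and interleukin 6 groups were lower at day 15 where they were apart. Il1b, the central cytokine of acute inflammation, had 102 (44.7 to 160.1) at day 5 and 17.4 (8.12 to 26.7) at day 15, with 1.04 at day 0. Nlrp3, the sensor of the inflammasome that activates interleukin 1 beta, had 8.16 (3.37 to 12.9) and 1.24 (0.343 to 2.15). These 2 were the members apart among 20 measured loci of the interleukin 1 family and its receptors, whose median log2 ratio was -0.17. Other parts of the same system differed little: Il1rn, the natural antagonist, had 109 (61.0 to 157) and 85.8 (48.2 to 123), and Il1r2, the decoy receptor, 83.9 (46.5 to 121) and 66.7 (37.0 to 96.4). Il18 and Casp1, the protease that matures interleukins 1 beta and 18, had higher values, with Casp1 at 19.5 (8.81 to 30.2) and 35.6 (18.4 to 52.9). Transcripts of Il1b and an annotated gene on the opposite strand cannot be told apart, since the strand setting of the counting is not given in the sources used here. The same limit holds for other loci apart, among them Plk3, Tff1, Ly6g6c, Cysrt1, Cryaa, Tnnc2, Mb, Ckm, Myh1 and Myh2.

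Of 25 measured cytokines and receptors of the interleukin 6, 10 and 20 families and the colony stimulating factors, 20 reached an FPKM of 1, 4 were lower and apart and 0 higher and apart. The median was -0.12, but -0.43 over members with a mean FPKM of at least 1 across the 3 groups and -0.02 with a pseudocount of 5. Csf3, granulocyte colony stimulating factor, the growth factor of neutrophils, had 51.0 (29.5 to 72.5) at day 5 and 3.58 (0.678 to 6.48) at day 15, with 0.336 at day 0. A second entry of the same symbol at the same coordinates had 3.19 (0 to 18.8) and 3.50 (0 to 11.6). Il24, a cytokine of the interleukin 20 group made by wounded epithelium, had 23.9 (9.33 to 38.5) and 0.683 (0 to 1.62) and was listed at 0 at day 0. Lif and Osm, paralogous cytokines that signal through gp130 and lie next to each other (chr11:4236482-4272515), were both lower and apart, Lif at 7.79 (3.43 to 12.2) and 1.20 (0.223 to 2.18), and Osm at 6.30 (1.99 to 10.6) and 0.838 (0 to 1.76). Il6 had 6.76 (0.859 to 12.7) and 0.572 (0 to 1.18), a log2 ratio of -2.30, but its intervals overlapped. Socs3, the feedback inhibitor that this cytokine group induces, was lower and apart, at 22.3 (11.6 to 32.9) and 6.22 (2.73 to 9.71).

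Enzymes and regulators of the early inflammatory response were lower as a list. Of 23 measured NF-kB feedback and early response genes, all with an FPKM of at least 1, 4 were lower and apart, 0 were higher and apart and 20 had a lower value, where 48.9% of all named loci at that level did, and the median was -0.60. Hdc, which makes histamine, had 61.5 (11.7 to 111) and 4.70 (0.277 to 9.13), with 0.761 at day 0. Irg1, which makes the antibacterial metabolite itaconate in macrophages, had 16.7 (6.16 to 27.2) and 0.954 (0 to 1.91). Ptgs2, the inducible cyclooxygenase, had 27.1 (13.7 to 40.5) and 5.79 (2.79 to 8.79), on a locus 4.10 times the length of the gene. Tnfaip2, a gene induced by tumour necrosis factor, had 41.1 (22.1 to 60.0) and 13.7 (6.79 to 20.5). Tnfaip3 and Nfkbia, the feedback inhibitors of NF-kB, were not apart, at 10.2 (5.16 to 15.3) and 5.12 (2.35 to 7.88), and at 41.4 (16.9 to 66.0) and 27.3 (9.76 to 44.8). Mast cell genes other than Hdc differed less: Cpa3 had 6.68 at day 5 and 4.90 at day 15, and Mcpt4 5.09 and 3.52.

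Prostaglandin enzymes lay on both sides. Beside Ptgs2, Ptges, which makes prostaglandin E2, had 36.5 (19.1 to 53.9) and 24.4 (12.4 to 36.4) and was not apart. Ptgds, a prostaglandin D synthase of keratocytes, was higher and apart, at 11.7 (4.61 to 18.8) and 54.7 (28.3 to 81.0), with 109 at day 0. Hpgd, which inactivates prostaglandins, had 38.1 (16.5 to 59.6) and 83.3 (43.7 to 123). Ptgr1, which reduces prostaglandins and leukotriene B4, was higher and apart, at 22.7 (11.1 to 34.2) and 64.8 (35.2 to 94.5), both far below its untreated level of 598.

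In the tumour necrosis factor family 1 of 23 measured members was apart. Tnfsf11, the ligand RANKL that drives osteoclast formation, had 3.98 (1.54 to 6.41) at day 5 and 0.515 (0 to 1.07) at day 15, with 0.00697 at day 0. Its decoy receptor Tnfrsf11b had 22.6 (11.9 to 33.3) and 35.9 (19.9 to 51.9). Tnf itself was low at both times, at 3.94 (1.48 to 6.403) and 2.38 (0.647 to 4.11).

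**Figure D2:**
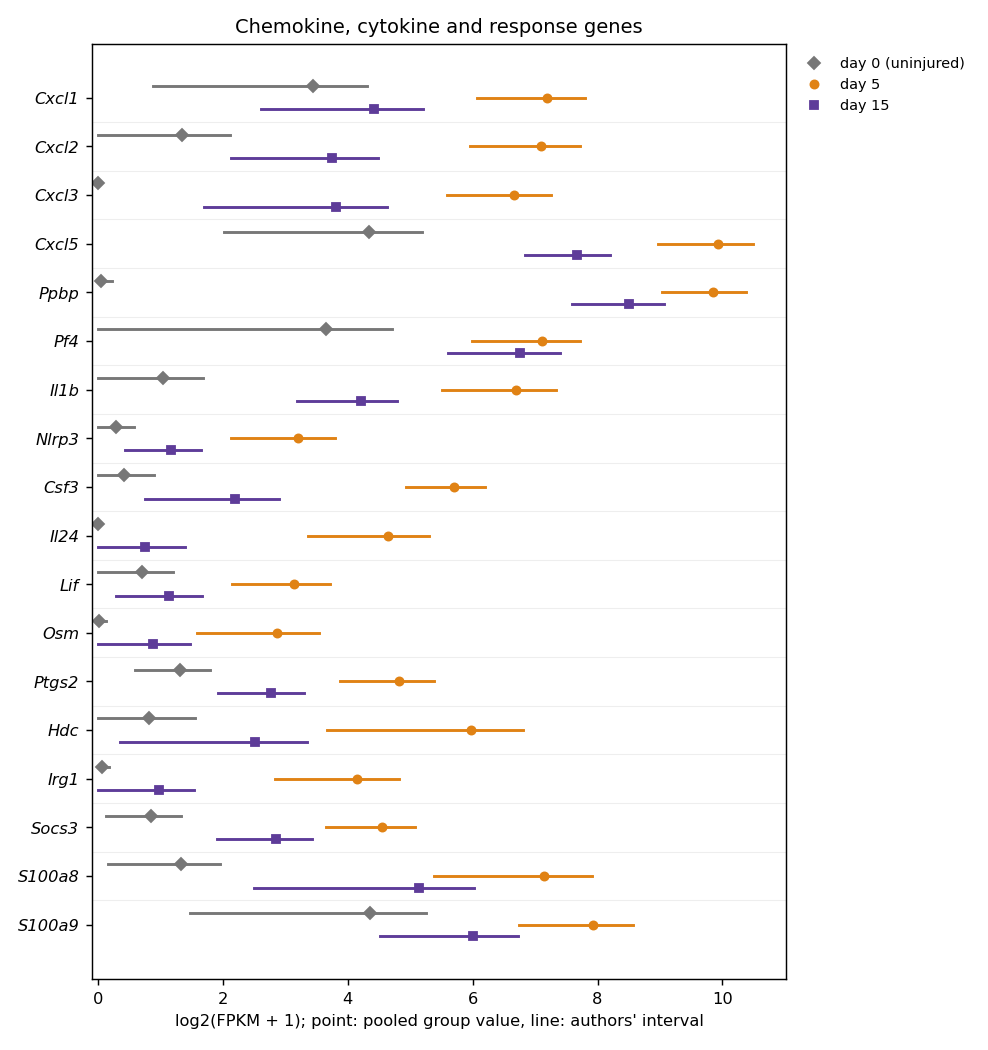
For 18 genes of inflammation the points give the pooled log2(FPKM + 1) at day 0 (diamonds), day 5 (circles) and day 15 (squares), and the lines the authors' intervals. The day 15 intervals of Cxcl1, Cxcl2, Cxcl3, Cxcl5, Il1b, Csf3 and Il24 lie below those of day 5 without overlap, whereas those of Ppbp, Pf4 and S100a8 overlap.

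Immediate early genes, transcription factors that respond within minutes to growth factors and stress, had lower values at day 15. Of 30 measured, all with an FPKM of at least 1, 26 had a lower value, 5 were lower and apart and 0 higher and apart, and the median was -0.66. Of all named loci at that level, 48.9% had a lower value and 0.424% were lower and apart. Atf3, a stress-induced repressor, had 92.0 (50.7 to 133) at day 5 and 25.8 (12.1 to 39.5) at day 15, with 5.86 at day 0. Fosb, a partner of Jun in the AP-1 complex, had 52.9 (28.6 to 77.2) and 18.2 (8.59 to 27.8). The orphan nuclear receptors Nr4a1 and Nr4a2 were both lower and apart, Nr4a1 at 34.1 (18.1 to 50.1) and 8.46 (4.05 to 12.9) and Nr4a2 at 18.5 (8.87 to 28.2) and 5.03 (1.89 to 8.18). Egr1, a zinc finger factor induced by wounding, had 31.5 (19.96 to 43.0) and 11.5 (6.41 to 16.5). Jun and Junb, the most abundant members named here, were not apart, with Jun at 202 (112 to 293) and 115 (67.0 to 162). Plk3, a kinase of the stress response, was lower and apart at 13.9 (6.16 to 21.6) and 3.50 (0.924 to 6.08). The values in untreated cornea were 0.908 for Nr4a1, 2.62 for Fosb and 3.71 for Egr1.

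Markers of neutrophils had lower values at day 15 beside the chemokines that attract them. Of 26 measured neutrophil markers, 17 reached an FPKM of 1, 22 had a lower value, 1 had a higher value, and 1 was lower and apart. The median was -0.79, and the summed FPKM was 1821 at day 5 and 982 at day 15. The median was -1.32 over members with a mean FPKM of at least 1 and -0.39 with a pseudocount of 5. The member apart was S100a9, a calcium-binding protein that makes up much of the neutrophil cytosol, at 242 (106 to 378) and 63.1 (21.8 to 104), where the intervals missed each other only narrowly. Its partner S100a8 had 140.3 (40.5 to 240.2) and 34.1 (4.61 to 63.6), a similar log2 ratio of -2.01, with overlapping intervals. Csf3r, the receptor of Csf3, had 7.72 (3.26 to 12.2) and 2.69 (0.906 to 4.47). Mpo, made in the bone marrow by neutrophil precursors, had 0.0194 at day 5 and was listed at 0 at day 15. Most of the summed level came from Ltf, lactoferrin, which epithelia and tear glands also make, at 1243 (304 to 2182.4) and 759.5 (312 to 1207). The merged locus of Trem1 and Trem3, receptors that amplify inflammation on myeloid cells, was lower and apart at 15.99 (6.55 to 25.4) and 1.83 (0.296 to 3.36), without a way to divide it between the genes. How far the number of neutrophils accounts for the chemokine and cytokine values was not tested.

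Macrophage markers showed the opposite balance. Of 33 measured, 31 reached an FPKM of 1, 25 had a higher value at day 15 and 8 a lower one. The median was 0.45, and the summed FPKM was 3063 at day 5 and 5901 at day 15, but none was higher and apart. Apoe, which many other cells also make, supplied 1239 and 2813 of these sums. Arg1, arginase 1, a marker of the wound-healing state, had 248 (138 to 358) and 654 (319.6 to 988). Apoe, an apolipoprotein, had 1239 (535 to 1943) and 2813 (1210.0 to 4416), with 1188 in untreated cornea. Lyz2, lysozyme 2, had 385 (216 to 553) and 685 (381 to 988), and C1qb, of the first complement component, 96.2 (49.7 to 143) and 182 (97.1 to 266). Spp1, osteopontin, and Gpnmb, a lysosomal glycoprotein, had 155 (88.4 to 221) and 54.0 (31.2 to 76.8) at day 15, with 71.4 and 26.5 at day 5. The intervals of each of these genes overlapped between the days. Cd14, the co-receptor for bacterial lipopolysaccharide, was the exception, lower and apart at 75.1 (41.7 to 108) and 19.9 (9.40 to 30.3). Emr1 (F4/80) and Csf1r, defining markers of the lineage, had 5.08 and 9.07, and 12.1 and 13.5.

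Genes of antigen presentation, interferon response and lysosomes leaned the same way with no member apart. Of 20 antigen presentation genes 16 had a higher value, and the median was 0.35. H2-Aa, a class II chain, had 169.5 (93.6 to 245) and 298 (171 to 425). Of 33 interferon-stimulated genes 27 had a higher value, and the median was 0.32. Isg15 and Ifit3 had 58.4 and 37.7 at day 15 against 31.2 and 19.6 at day 5, while Ifitm3 had 968 (540.2 to 1395) at day 5 and 592 (331 to 852) at day 15. Ddx60, an RNA helicase linked to antiviral sensing that was not on that list, was higher and apart at 12.2 (5.95 to 18.4) and 37.4 (20.6 to 54.3). Naip1, a sensor of bacterial needle proteins, was also higher and apart, at 9.04 (4.59 to 13.5) and 26.1 (14.4 to 37.8). Of 28 lysosomal genes 20 had a higher value, led by Ctss, cathepsin S, at 145 (81.7 to 207) and 288 (157 to 418). Lymphocyte markers were scarce at both times, with Cd3e, a chain of the T cell receptor complex, at 0.406 and 0.353.

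The most negative log2 ratios of protein-coding genes belonged to a placental hormone family and a ribonuclease. Prl2c2 and Prl2c3, proliferins of the prolactin family known from placenta and growing fibroblasts, were lower and apart. Prl2c2 had 42.2 (12.8 to 71.5) at day 5 and 0.607 (0 to 1.77) at day 15 and was listed at 0 at day 0, and Prl2c3 had 28.5 (3.91 to 53.1) and 0.542 (0 to 1.58). They are near-identical copies on chromosome 13, so that reads cannot be divided between them reliably, and the close relative Prl2c5 had 2.40 (0 to 5.64) at day 5 and was listed at 0 at day 15. Ang2, here the angiogenin-family ribonuclease and not angiopoietin 2, had 21.3 (7.67 to 34.9) and 0.197 (0 to 0.693). Angiopoietin 2, the vessel-destabilising ligand with the symbol Angpt2, had 3.63 (0.945 to 6.32) and 3.32 (0.864 to 5.78). In the list of 16 prolactin, angiogenin-family and Il24 loci, 8 reached an FPKM of 1, 4 were lower and apart, and 6 were listed at 0 at day 5 and 7 at day 15. The 4 were Prl2c2, Prl2c3, Ang2 and Il24, the last of them counted among the interleukins as well. This list was made with earlier results of these data known, so its count is not an independent result.

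Genes of blood vessels were largely at the same level on both days. Of 29 measured markers of blood endothelium, 26 reached an FPKM of 1, 12 had a higher value and 17 a lower one, and the median was -0.07. Pecam1 had 7.06 (3.81 to 10.3) at day 5 and 6.70 (3.52 to 9.88) at day 15, Cdh5 8.37 (4.28 to 12.5) and 5.90 (2.64 to 9.16), and Emcn 34.7 (16.2 to 53.2) and 40.5 (17.8 to 63.1). These are junction and surface proteins of endothelial cells, and their intervals overlapped widely. Erg, a transcription factor of endothelial identity, was the 1 member apart, lower at 118 (97.9 to 138) and 56.3 (44.8 to 67.8), with 12.0 at day 0. Its log2 ratio of -1.06 was smaller in size than the -1.36 of Esm1. Its intervals were narrow for its value beside those of the other members, and its day 5 value was the highest of the list. Esm1 and Apln, known from the tips of sprouting vessels, had the largest other differences, Esm1 at 16.5 (7.30 to 25.8) and 5.85 (1.58 to 10.1), and Apln at 4.06 (1.07 to 7.06) and 1.72 (0.193 to 3.25), neither apart. Vegfa, the main growth factor of vessels, had 8.43 at day 5 and 4.76 at day 15 with overlapping intervals, and its receptor Kdr 3.47 (1.48 to 5.46) and 3.88 (1.69 to 6.07).

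Pericytes, lymphatic vessels and red blood cells gave no member apart. Of 16 pericyte and smooth muscle markers 12 had a lower value, with a median of -0.24, and Acta2, the actin of smooth muscle and myofibroblasts, had 99.9 (47.4 to 152) and 68.9 (34.3 to 103). Lyve1 and Prox1, markers of lymphatic endothelium, had 2.66 and 1.84, and 0.880 and 1.69. Of 11 red blood cell genes 10 had a lower value. The median was -0.44, and the summed FPKM was 260.2 at day 5, 109 at day 15 and 22.3 at day 0. Over members with a mean FPKM of at least 1 the median was -1.01, and with a pseudocount of 5 it was -0.26. Hba-a2, an alpha globin, had 159 (74.6 to 244) and 58.8 (19.8 to 97.9), and Hbb-bs, a beta globin, 39.6 (18.8 to 60.3) and 12.9 (4.16 to 21.7). The share of blood in the tissue and its part in the myeloid values was not tested.

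Among secreted regulators of vessels, those lower and apart at day 15 were found both among promoting and among restraining factors. Of 21 promoting factors 3 were apart, namely Prl2c2, Prl2c3 and Ang2. Of 22 restraining factors 2 were apart, Cxcl14 and Adamts1, a metalloproteinase that binds vascular growth factor, at 17.3 (9.15 to 25.5) and 5.98 (3.23 to 8.73). Thbs1, thrombospondin 1, had 295 (142 to 447) and 138 (75.4 to 201) with overlapping intervals. Angptl7, a restraining factor of the stroma, had 34.4 (14.4 to 54.3) and 72.0 (37.3 to 107) against 588 in untreated cornea.

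Matrix and protease genes had 1 member apart in each of 2 lists and 2 in another. Plaur, the receptor that focuses urokinase at the cell surface, had 107 (57.1 to 158) and 30.7 (12.9 to 48.6), and Plat, tissue plasminogen activator, 60.7 (34.2 to 87.1) and 21.1 (11.4 to 30.9), and both were lower and apart. Plau, urokinase itself, had 62.0 (34.2 to 89.9) and 53.6 (30.0 to 77.2). Of 26 matrix metalloproteinases and their inhibitors none was apart. Mmp13, a collagenase, had 45.9 (22.7 to 69.1) and 99.95 (48.0 to 152), Mmp3, stromelysin, 338 (167 to 509) and 177 (91.7 to 262), and Mmp9, a gelatinase, 8.30 (4.19 to 12.4) and 3.59 (1.57 to 5.60). Eln, elastin, was lower and apart at 34.95 (20.7 to 49.3) and 8.65 (4.03 to 13.3), against 0.961 at day 0, and Fbn2, a fibrillin of the microfibrils on which elastin is laid down, at 15.0 (8.26 to 21.8) and 5.04 (2.40 to 7.69). Of 35 scar matrix genes 28 had a lower value, with a median of -0.35. Collagens were level, with 0 of 29 apart, Col1a1 at 1179 (320.0 to 2037) and 1472 (312 to 2632), and Col3a1, the collagen of early scars, at 1351 (371 to 2331) and 1019 (357 to 1680.3). Smoc2, a matricellular calcium-binding protein, was higher and apart at 5.20 (2.58 to 7.82) and 13.4 (7.98 to 18.8), near its untreated 15.4.

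Genes of cell division were lower without exception on the list and without a single member apart. All 44 measured cell cycle genes had a lower value at day 15, where 48.9% of named loci with an FPKM of at least 1 did, with log2 ratios from -1.18 to -0.09 and a median of -0.58. Their summed FPKM was 853 at day 0, 1051 at day 5 and 726 at day 15. Mki67, the antigen Ki-67 of dividing cells, had 26.4 (14.9 to 37.9) at day 5 and 11.1 (6.07 to 16.2) at day 15, with 12.5 at day 0. Rrm2, which supplies nucleotides for DNA synthesis, had 10.6 (5.73 to 15.4) and 4.27 (2.096 to 6.44), and Top2a, a topoisomerase of mitosis, 43.6 (23.7 to 63.5) and 26.1 (14.5 to 37.6). Of 17 histone genes 15 had a lower value, among them Hist1h1a at 228 (121 to 334) and 108 (52.7 to 163), although replication-dependent histone transcripts lack poly(A) tails and are caught incompletely by this kind of library.

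Goblet cell and mucosal genes had more members higher and apart at day 15 than any other of the 59 lists. The lists differ in size and were made with earlier results of these data known, so this rank is not an independent result. In the lens list, 5 members were higher and apart and 13 reached an FPKM of 1. Of 29 measured goblet cell and mucosal genes, 21 reached an FPKM of 1 and 24 had a higher value. Of these genes 6 were higher and apart and 0 lower and apart, where 0.408% of all named loci at that level were higher and apart. The median log2 ratio was 0.51. Leaving out members with a mean FPKM under 1 moved this median to 0.99, and a pseudocount of 5 moved it to 0.27. Muc5ac, the gel-forming mucin of the tear film, had 1.61 (0.715 to 2.51) at day 5 and 32.3 (17.6 to 47.0) at day 15, a log2 ratio of 3.67, with 0.0104 at day 0. Muc5b, its neighbour and relative on chromosome 7 (chr7:141788912-141873741 for the pair), had 0.513 (0.165 to 0.860) and 4.41 (2.40 to 6.42). Agr2, an enzyme of the endoplasmic reticulum that folds mucins, had 66.0 (32.5 to 99.6) and 308 (175 to 441), with 9.86 at day 0. Gp2, a glycoprotein that binds bacteria on mucosal surfaces, had 14.6 (7.53 to 21.7) and 162 (91.3 to 234). Tff1, a trefoil peptide released with mucins, had 10.5 (0 to 22.1) and 96.2 (38.3 to 154), on a locus 3.17 times the length of the gene, and was listed at 0 at day 0. Fcgbp, a protein of mucus, had 4.06 (1.92 to 6.20) and 13.6 (7.37 to 19.8), but stood at 10.7 in untreated cornea, unlike Muc5ac and Muc5b.

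Regulators of the goblet cell had higher values without being apart. Spdef, the transcription factor of goblet cell maturation, had 1.58 (0 to 3.39) and 5.43 (1.57 to 9.29), and Ern2, a stress sensor of mucous cells, 0.275 (0 to 0.595) and 2.28 (0.565 to 3.99). Muc13, a membrane mucin, had a lower value, at 5.73 (2.56 to 8.90) and 1.78 (0.639 to 2.91), and the membrane mucins Muc1 and Muc4 were level, Muc1 at 81.6 (43.7 to 119.5) and 81.8 (46.5 to 117). Keratins of conjunctiva were abundant, Krt4 at 2070.3 (679 to 3462) and 6734 (429 to 13038) and Krt13 at 765 (319.9 to 1209) and 2271 (527 to 4016), with wide and overlapping intervals. Both were abundant in untreated cornea as well, Krt4 at 757 and Krt13 at 769. Krt8, Krt18 and Krt19, keratins of simple epithelium, had lower values at day 15, with Krt18 at 49.99 (23.6 to 76.4) and 23.3 (11.8 to 34.9).

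Secreted defence proteins and protease inhibitors were mixed. Reg3g, a lectin that kills Gram-positive bacteria, was higher and apart at 0.843 (0 to 1.92) and 12.5 (4.53 to 20.5), and Spink12, a Kazal-type protease inhibitor, at 5.02 (0.143 to 9.89) and 59.0 (27.7 to 90.3), both listed at 0 at day 0. Csta1, a cystatin that inhibits cathepsins, was higher and apart at 16.1 (8.37 to 23.9) and 53.0 (28.9 to 77.0). Defb1, a defensin of epithelia, had 98.4 (51.9 to 145) and 239 (132 to 345), whereas Lcn2, which binds bacterial siderophores, had 32.8 (17.4 to 48.2) and 11.8 (4.60 to 19.02), neither apart. Serpinb3a, a protease inhibitor of squamous epithelium, had 1356 (563 to 2149) and 2798 (942 to 4655). Of 21 antimicrobial genes 1 was higher and 1 lower and apart, and of 23 serpins and related inhibitors 1 was higher and apart.

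Genes of the lacrimal and other orbital glands were nearly silent at both times where they had a locus of their own, but 1 merged locus of the list was abundant. Of 16 members with their own locus, 12 were listed at 0 at day 5 and 10 at day 15, and the summed FPKM was 1.87 and 8.69. Scgb2b2, a secretoglobin, had 2.84 (0 to 6.41) at day 15 after an entry of 0 at day 5, and Car6, the carbonic anhydrase of saliva and tears, had 1.35 and 3.38. That merged locus, of the exocrine gland peptides Esp5 and Esp6, is not in these sums and had 998 (456 to 1539.7) at day 5 and 3125 (1373 to 4876) at day 15, against 3.13 at day 0, and its intervals overlapped. The part of gland tissue in the mucosal values was not tested.

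Genes of the corneal surface were higher at day 15 in places, some with values still below the untreated value and others above it. Of 26 measured genes of corneal and limbal epithelium, 25 reached an FPKM of 1, 4 were higher and apart, 0 were lower and apart and 18 had a higher value. The median was 0.44. Their summed FPKM was 9923 at day 5 and 20139 at day 15, against 58537 in untreated cornea. The untreated sum counts Krt12, which has no usable day 0 value, as 0. Most of that sum came from Lypd2 at 13645, Slurp1 at 11780, Psca at 10585 and Aldh3a1 at 9150. Psca, a surface protein of the Ly6 family, had 757 (424 to 1090.1) and 4903 (2003 to 7803), with 10585 at day 0. Upk1b, a uroplakin tetraspanin of the superficial cells, had 103 (61.2 to 146) and 369.8 (193 to 547), with 995 at day 0. Dsg1a, a desmosomal cadherin of the upper layers, had 2.53 (0.874 to 4.19) and 13.2 (7.04 to 19.4), with 195 at day 0. Its neighbour Dsg1b had 10.3 (4.06 to 16.6) and 32.5 (16.6 to 48.4), with intervals that all but touched, so that it was no longer apart after either rescaling of the groups. Among the members apart, Ly6d, a Ly6 protein of stratified epithelia, was the exception in order, at 8.74 (1.19 to 16.3) and 97.6 (55.8 to 139), above the 8.13 of untreated cornea. Members not apart lay on both sides of day 0. Krt14 and Ehf had 760 and 468 at day 15 against 180 and 394 at day 0, whereas Mal had 4237 against 5838. For Psca, Upk1b, Krt14, Ehf and Mal the day 15 and day 0 intervals overlapped, so that their order is not resolved.

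The Ly6 cluster on chromosome 15 showed how unequal neighbours were. Psca (chr15:74714691-74717465) and Ly6d (chr15:74762056-74763567) were higher and apart, and between them lie Slurp1 and Lypd2, secreted and membrane Ly6 proteins that are among the most abundant transcripts of untreated cornea, at 11779.7 and 13645. At day 5 Slurp1 had 1.12 (0 to 3.45) and at day 15 0.971 (0 to 3.30), and Lypd2 had 1.37 (0 to 3.76) and 1.9602 (0 to 5.37). Lynx1, between Lypd2 and Ly6d, had 3.44 at day 5 and 4.29 at day 15 against 122 at day 0. The 2 genes apart are thus separated by genes with nearly the same value on both days. The coordinates of Slurp1 are those of Them6 as well, and its value may hold reads of that gene. A further Ly6 gene, Ly6g6c on chromosome 17, was higher and apart at 4.40 (1.04 to 7.76) and 25.01 (12.2 to 37.9), with 159 at day 0.

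Other epithelial genes with a high untreated level were higher and apart at day 15. Aqp5, a water channel of the corneal epithelium, had 25.6 (10.9 to 40.2) and 104 (56.0 to 152), with 1062 at day 0. Mgarp, a mitochondrial protein abundant in cornea, had 23.6 (9.92 to 37.2) and 71.7 (37.9 to 106), with 2923 at day 0, and lost its call under upper quartile scaling. Cysrt1, a protein of stratified epithelium, had 48.5 (19.97 to 77.0) and 165 (83.2 to 247), with 554 at day 0. Erich5, Aif1l and Adtrp had 15.6, 37.1 and 15.5 at day 15, against 4.43, 11.5 and 4.80 at day 5 and 224, 121 and 86.8 at day 0. Aif1l binds actin, and Adtrp is known as a regulator of tissue factor pathway inhibitor.

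Several higher genes had, in contrast, a day 15 value above the values of both other groups. Sptssb, a subunit that sets the chain length of sphingolipids, had 18.5 at day 0, 159 (86.8 to 232) at day 5 and 599.6 (326 to 873) at day 15. Ripply3, a transcriptional repressor, had 36.1, then 55.8 (27.9 to 83.7) and 170.0 (92.3 to 248). Cyp2a5, a cytochrome P450 of the mucosa, had 21.3, then 69.1 (37.7 to 100.4) and 222 (127 to 317). Ggh, gamma-glutamyl hydrolase of folate metabolism, had 62.6, then 71.6 (38.0 to 105) and 209.8 (119.8 to 299.7). Adh6a, an alcohol dehydrogenase, had 172, then 144 (75.3 to 213) and 385 (218 to 552). Car2, carbonic anhydrase 2, had 2.41, then 7.46 (1.24 to 13.7) and 31.6 (14.1 to 49.2), and Lpl, lipoprotein lipase, 1.37, then 1.51 (0.444 to 2.58) and 6.60 (3.03 to 10.2). Bcas1, known from myelinating cells and from mucosal epithelium, had 30.6, then 19.9 (9.97 to 29.9) and 66.5 (35.6 to 97.4). The 4 lowest genes of the group were Chgb (a granin of secretory granules), Sox11 (a developmental transcription factor), Synpr (a synaptic vesicle protein) and Lman1l (a lectin of the early secretory path), at 1.45, 2.06, 3.55 and 2.16 at day 15 against values between 0.151 and 0.365 at day 5. For Adh6a, Bcas1 and Synpr the day 0 interval overlapped that of day 15, so that a level above untreated cornea is not resolved. These day 0 intervals were 97.4 to 247 for Adh6a, 15.8 to 45.3 for Bcas1 and 0.0789 to 1.81 for Synpr.

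The label of the tissue was borne out by its markers only in part after the burn. Krt12, the keratin that defines corneal epithelium, had 6.81 (1.34 to 12.3) at day 5 and 9.67 (2.70 to 16.6) at day 15, without a usable day 0 value because its status there was too many fragments. Aldh3a1, the corneal crystallin, had 303 (165 to 441) and 866 (437 to 1294), not apart by a small margin, and Pax6, the master regulator of the eye surface, 63.6 (40.7 to 86.5) and 108 (72.0 to 143). Kera, keratocan, the marker of quiet keratocytes, had 11.2 (4.98 to 17.5) and 16.2 (7.35 to 24.96), against 516 at day 0. Lum and Dcn, more widely expressed proteoglycans of the stroma, were at 243 and 286, and at 1388 and 2104. Of 20 measured keratocyte genes 1, Ptgds, was apart, and 12 had a lower value, with a median of -0.06. Slc4a11, a transporter of the corneal endothelium, had 3.10 (0 to 6.81) and 1.04 (0 to 2.48), against 55.9 at day 0.

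Keratins and cornified envelope genes, which wounded and keratinising epithelium express, held no member apart among 17 and 35 measured. Krt17, a wound keratin, had 564 (191 to 937) and 359.9 (209 to 511), and Krt14, the basal keratin, 500.2 (153 to 847) and 759.9 (205 to 1315). Sprr1b, a precursor of the cornified envelope, had 5.84 (0 to 11.7) at day 5 and 0.251 (0 to 0.828) at day 15, a log2 ratio of -2.45 with overlapping intervals, while its paralogue Sprr1a had 152 (83.1 to 220.2) and 89.3 (49.3 to 129). Dmkn, dermokine, had 256 (133 to 379.6) and 101 (41.5 to 161). Of 28 desmosome and tight junction genes 23 had a higher value and 2, the Dsg1 pair, were apart.

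**Figure D3:**
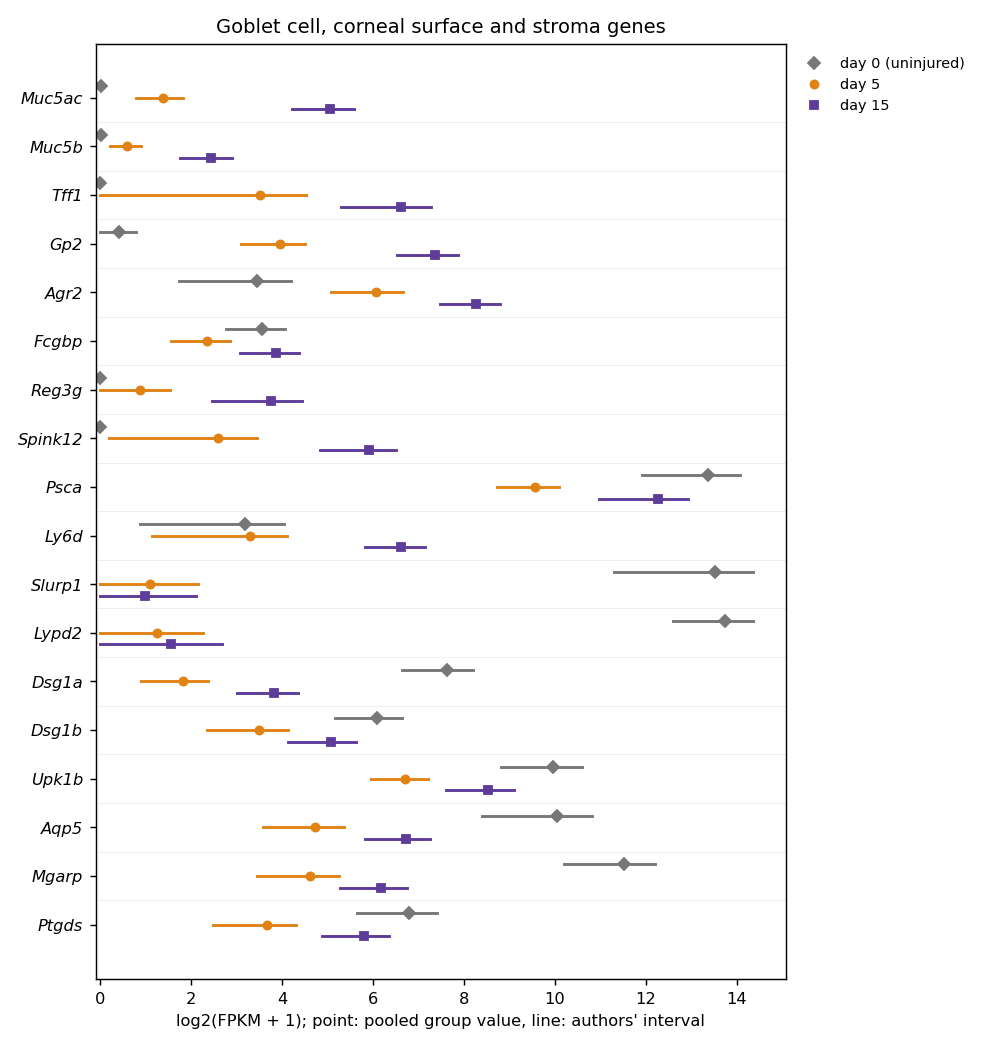
Pooled log2(FPKM + 1) at day 0 (diamonds), day 5 (circles) and day 15 (squares) for 18 genes of mucosa, corneal surface and stroma, with the authors' intervals as lines. Muc5ac, Gp2, Agr2 and Spink12 stand highest at day 15, and Slurp1 and Lypd2 lie near 1 to 2 FPKM at both times after the burn. The day 15 points of Psca, Upk1b, Aqp5 and Mgarp lie between those of day 5 and day 0, although the day 15 and day 0 intervals of Psca and Upk1b overlap.

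Genes of lens, retina, pigment cells and skeletal muscle differed between the groups as whole lists. Of 25 measured lens genes, 13 reached an FPKM of 1, 22 had a higher value at day 15 and 5 were higher and apart. The median was 0.72, and the summed FPKM was 60.4 at day 5, 312 at day 15 and 475 at day 0. This median depended on low members, at 2.19 without members whose mean FPKM was under 1 and at 0.22 with a pseudocount of 5. Crystallins are the structural proteins of lens fibres. Cryaa, alpha A crystallin, had 10.6 (2.26 to 18.9) at day 5 and 72.9 (36.8 to 109) at day 15, with 158 at day 0, and Cryba1, a beta crystallin, 10.2 (0 to 21.02) and 86.9 (39.6 to 134), with 94.4 at day 0. Crybb2 and Crybb3, adjacent on chromosome 5 (chr5:113058257-113081584), had 3.49 (1.45 to 5.52) and 26.2 (14.4 to 38.1), and 3.77 (0.156 to 7.39) and 26.5 (10.8 to 42.1). Cryba2 had 2.33 (0 to 5.20) and 16.9 (5.35 to 28.4). The membrane proteins of the lens fibre were low, with Mip at 0.235 and 0.891 and Bfsp1 at 1.24 and 1.52.

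The promoters of Cryaa and Cryba1 are shown because both crystallins hold TGCTGAC, a core sequence of the Maf factors that drive lens genes, marked here in capitals.
Cryaa (chr17:31677811-31677930, plus strand): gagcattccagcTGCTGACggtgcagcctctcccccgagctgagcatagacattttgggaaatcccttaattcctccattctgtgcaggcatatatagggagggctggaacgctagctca
Cryba1 (chr11:77725294-77725413, minus strand): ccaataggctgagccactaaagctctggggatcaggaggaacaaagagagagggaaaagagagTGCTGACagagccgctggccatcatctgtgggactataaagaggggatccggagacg
The match begins 108 and 57 bases before the start. It is common, in 1535 of the 32851 promoters (4.67%), and was present in 3 of the 31 higher genes (Cryaa, Cryba1 and Cyp2a5) and 1 of the 39 lower genes (Mb). Cryba2, Crybb2 and Crybb3, also higher and apart, were not among the matches. Whether each of them had a promoter to search is not given here.

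Retina and pigment genes leaned the same way as lens. Of 22 measured photoreceptor and retina genes, 20 reached an FPKM of 1, 21 had a higher value and 2 were higher and apart. The median was 1.24, and the summed FPKM was 55.1 at day 5, 238 at day 15 and 136 at day 0. With pseudocounts of 0.1 and 5 the median was 1.87 and 0.54. Rbp3, the retinoid carrier between photoreceptors and pigment epithelium and 1 of the members apart, had 1.40 (0.433 to 2.36) and 6.51 (2.87 to 10.2). Sag, the arrestin of rods, had 5.90 (1.66 to 10.1) and 23.97 (8.88 to 39.1) with overlapping intervals. All 12 pigment genes had a higher value and 2 were apart. The median was 0.77, and the summed FPKM was 100.6, 277 and, at day 0, 436. With pseudocounts of 0.1 and 5 the median was 1.28 and 0.44. Dct and Tyrp1, enzymes of melanin synthesis, had 34.9 (17.5 to 52.3) and 114 (62.5 to 165), and 9.49 (4.39 to 14.6) and 27.6 (15.2 to 40.1). None of the defining lens, photoreceptor and pigment markers was listed at 0 at either time.

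Skeletal muscle genes lay on the other side. All 25 measured had a lower value at day 15, 21 reached an FPKM of 1, and 9 were lower and apart. The median was -1.65, and the summed FPKM was 852 at day 0, 585 at day 5 and 203 at day 15. With a pseudocount of 5 the median was -0.67. Myl1, a light chain of fast myosin, had 257 (141 to 374) and 55.8 (21.5 to 90.1), with 430.0 at day 0. Tnnc2, the calcium sensor of fast muscle, had 58.2 (28.9 to 87.6) and 13.98 (2.99 to 24.97), and Eno3, the muscle enolase, 17.1 (8.23 to 26.0) and 4.38 (1.40 to 7.37). Acta1, skeletal actin, had 9.99 (5.31 to 14.7) and 2.51 (1.13 to 3.88). Ckm, Mb, Actn2, Myh1 and Myh2 were the other members apart, and Smpx, Ckmt2, Mybpc1 and Myh3, muscle genes outside the list, were lower and apart as well. Myh3, Myh2 and Myh1 lie in a row on chromosome 11 (chr11:67078299-67224575), and each has a day 0 value near or above its day 5 value. Without the lens, retina, pigment, muscle and red blood cell lists, 44 loci were higher and 46 lower and apart. The part of these tissues in the other differences was not tested.

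**Figure D4:**
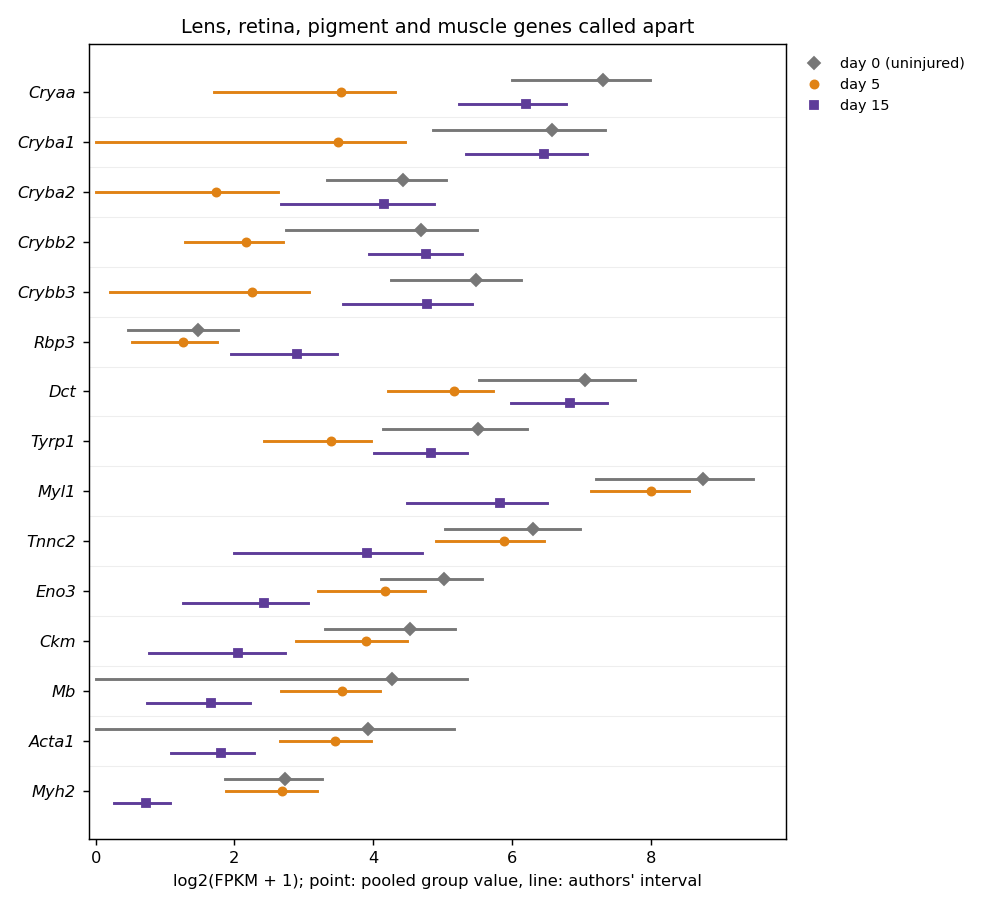
Pooled log2(FPKM + 1) at day 0 (diamonds), day 5 (circles) and day 15 (squares) for lens, retina, pigment and muscle genes called apart, with the authors' intervals as lines. The 5 crystallins, Rbp3, Dct and Tyrp1 are lowest at day 5, whereas the 7 muscle genes from Myl1 to Myh2 are lowest at day 15.

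Metabolic genes held no member apart in 5 lists. Of 31 glycolysis and hypoxia genes 20 had a lower value, with a median of -0.11, and Slc16a3, the lactate exporter, and Hk2, hexokinase 2, had the largest differences, Slc16a3 at 56.0 (15.5 to 96.5) and 17.7 (3.76 to 31.6), and Hk2 at 31.0 (17.1 to 45.0) and 12.1 (6.52 to 17.7). Of 28 respiratory chain subunits 22 had a higher value, and the median was 0.14. Glutathione transferases abundant in untreated cornea had higher values, Gsta4 at 965 (412 to 1518) and 2182.2 (535 to 3829.7), against 5428 at day 0. Slc7a11, the cystine importer, had 16.9 (2.24 to 31.5) and 5.51 (0.335 to 10.7). Genes of lipid synthesis were level, with a median of -0.08 over 27, and Fasn, fatty acid synthase, had 23.5 (13.3 to 33.8) and 12.2 (6.79 to 17.6). Of 16 reference genes none was apart and 12 had a lower value, with a median of -0.19, and Gapdh had 969 (535 to 1404) and 635 (356 to 915).

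Signalling lists had few members apart. In the growth factor list of the EGF family 1 of 20 was apart, Epgn, and Nrg1, a neuregulin, had 8.29 (0.371 to 16.2) and 1.91 (0 to 4.83). Of 33 genes of the TGF-beta, BMP and activin pathways and 36 of the Wnt pathway none was apart, with medians of -0.09 and 0.0042. Grem1, an antagonist of BMPs, had 4.82 (0.660 to 8.97) and 0.880 (0 to 2.06). Among 15 circadian clock genes Nfil3, a repressor that also responds to cytokines, was lower and apart at 13.3 (4.83 to 21.7) and 2.02 (0 to 4.09), whereas Tef and Dbp, activators that compete with it for the same sites, had higher values, Tef at 12.3 (6.82 to 17.8) and 22.1 (13.02 to 31.1). The hour of sampling is not in the labels. Trpm3, the host gene of miR-204, the microRNA named in the title of the study, had 3.25 (0 to 7.79) and 6.76 (0 to 13.95), against 129 at day 0, and of 17 loci of this host and described targets none was apart.

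**Figure D5:**
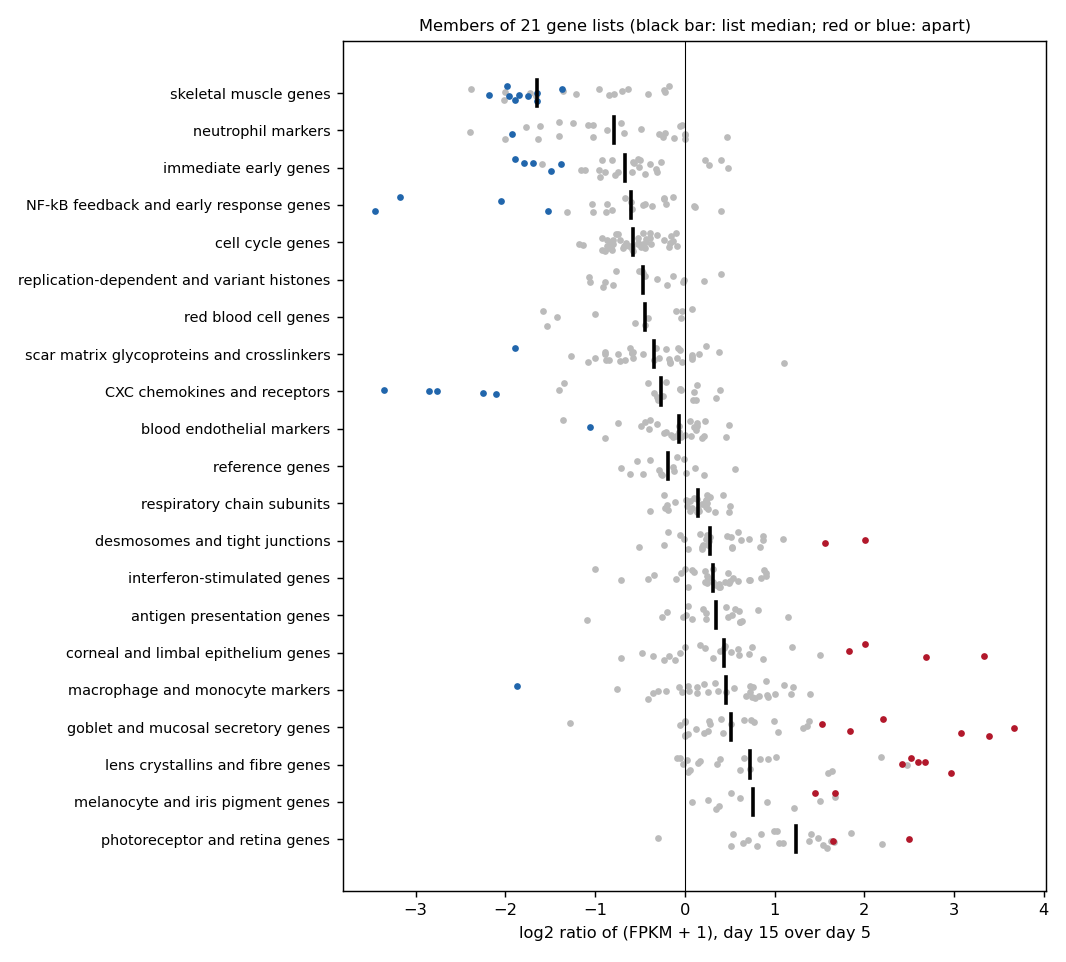
Each point is 1 measured member of a gene list, placed by its log2 ratio of (FPKM + 1) between day 15 and day 5, in red where higher and apart, in blue where lower and apart and in grey otherwise, and the black bar is the median of the list. Medians run from -1.65 for skeletal muscle and -0.79 for neutrophils to 0.51 for goblet cell genes and 1.24 for retina, and all cell cycle genes lie left of 0 with none apart.

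The largest log2 ratios of all belonged to loci named for small RNAs, and their values are uncertain. Snora41, Snora44 and Snord15b, small nucleolar RNAs, had entries of 0 at day 5, then 696 (676 to 716), 322 (318 to 326) and 16.4 (2.17 to 30.6) at day 15, and Mir669k had 112 (109 to 116) at day 15 alone. Snora3 and Mir8118 had 243 (220.3 to 265) and 83.7 (77.0 to 90.3) at day 5 and were listed at 0 at day 15. These loci are between 21.4 and 1770 times as long as the annotated RNA, and a poly(A) library does not capture such RNAs reliably. Rnu12, a small nuclear RNA of the minor spliceosome, had 1.58 (0 to 3.42) and 17.7 (14.8 to 20.6), and the merged locus of Snhg1 and Snord22 259.6 (209 to 310.1) and 30.5 (0 to 73.4). Without such loci 48 were higher and 52 lower and apart. H19, a long imprinted RNA, had 150.2 (79.2 to 221) and 55.2 (27.4 to 83.0) and was not apart.

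Neighbouring genes accounted for 17 of the 108 loci apart, in 8 runs of loci apart that lay within 100 kb of each other and had the same direction, not counting the loci between them that were not apart. Those lower were Cxcl5 with Cxcl3, Cxcl1 with Cxcl2, Osm with Lif, and Myh3 with Myh2 and Myh1. Those higher were Psca with Ly6d, Dsg1a with Dsg1b, Crybb2 with Crybb3, and Muc5ac with Muc5b. Each run joins paralogues of 1 family. The remaining loci lower and apart were Mab21l3, at 23.5 (10.99 to 36.1) and 6.37 (2.53 to 10.2), and Sh2d5, an adaptor with an SH2 domain, at 6.93 (2.03 to 11.8) and 0.735 (0.0380 to 1.43). One further locus higher and apart carries only a provisional model name. Of loci without a symbol, 5 were higher and 2 lower and apart.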

How the data were processed

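The deposited Cuffdiff gene table gives, per group, an FPKM pooled over 2 samples, the lower and upper bound of the authors' interval and a status, per the file headers. Bowtie2 2.2.6, TopHat2 2.1.0, Cuffdiff without a version, Cufflinks 2.2.1 and the mm10 build are listed in the submitters' processing notes. The annotation and strand setting are not given in the sources used here. The table has 0 columns of single samples, so replicates could not be compared, and depth is unknown. Status was OK at both times for all loci. Log2 ratios used a pseudocount of 1, the larger FPKM had to reach 1, and intervals had to be disjoint. The members, the 59 gene lists and the call rule were chosen with earlier results of these data known. Named were loci apart except provisional models, up to 6 list members with the largest log2 ratios, members asked for by role as ligand, receptor or marker, and 25 genes given always. Some other members are named beside these as relatives of a gene apart, chosen after their values were seen. The longest run common to the 3 chemokine promoters was searched for in all promoters. Symbols were matched with older aliases. A symbol on several loci was taken from the one with the highest mean, and merged loci that also name a gene from elsewhere were dropped from a list. Coordinates count from 1 on mm10. Among 23112 loci with 1 symbol in GENCODE M21 (GRCm38), 98.6% overlapped that gene. Promoters are from RefSeq GRCm38.p6. The call rule was tested on simulated data. Alternatives varied the pseudocount, minimum, fold, intervals, scaling and loci included. Python 3.11.15, numpy 2.4.6, pandas 2.3.3 and matplotlib 3.10.9 were used. Some genes of the lists are not reported here by name.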

Additional observations from a re-analysis of the deposited data

How the results depend on the processing

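The counts of loci apart, 108 with 53 higher and 55 lower at day 15, moved by more than 1.5 times under 3 alternatives. With a log2 ratio of at least 2 there were 48, of which 23 were higher and 25 lower. With intervals not used there were 554, of which 291 were higher and 263 lower. When only the point value of each group had to lie outside the interval of the other there were 309, of which 171 were higher and 138 lower. Pseudocounts of 0.1 and 5 gave 110 and 92, no minimum FPKM 108, a minimum of 10 gave 89, a lower minimum of the log2 ratio gave 113, scaling to the median 107 and to the upper quartile 106, single-symbol loci 106, and all loci 115. Another 2 alternatives were chosen after seeing the data. With small RNA loci left out there were 100, and without the lens, retina, pigment, muscle and red blood cell lists 90. No locus apart changed direction under any of these alternatives. Scaling shifted the log2 ratios by -0.02 to the median and -0.03 to the upper quartile. Of 59 list medians 4 changed sign under an alternative (Schwann cell, T and NK cell, Wnt and lymphatic lists). With a pseudocount of 1 and no filter these 4 were under 0.25 in size, but with members of a mean FPKM of at least 1 the T and NK cell median was 0.28 and the lymphatic one -0.32. Under a pseudocount or scaling 10 medians moved by at least 0.25, and under that filter 12 did. No paired analysis was possible because the table has no column per sample, and the fit with a replicate block and the fits leaving out each sample were therefore not run. Without reads or replicates, differences within the intervals are not resolved.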
